A study of Mus musculus with 9 samples.

Results

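Expression of 10 genes of the Bcl2 family was followed in haematopoietic stem cells of young and old mice. The genes were chosen by name, as the classical survival and death members of the family, and all 10 were found among the 52550 gene identifiers of the count table. They are the anti-apoptotic members Bcl2, Bcl2l1 and Mcl1, the BH3-only members Bcl2l11, Bbc3, Pmaip1, Bid and Bad, and the effectors Bax and Bak1. The 9 RNA-seq libraries comprised 3 from wild-type (WT) mice aged 2 months (young WT), 3 from WT mice aged 22 to 24 months (old WT), and 3 from mice in that older age range whose genotype is labelled B6N.129S6-Sphk2tm1Rlp/J (Sphk2 cKO), here old KO. No Cre driver, mouse number, sex, litter or day is named in the labels. Each library came from 1000 bone marrow cells sorted as lineage-negative, Sca1+, c-Kit+, CD48- and CD150+, and the labels call the 3 libraries of a type technical replicates. The p-values below therefore cover no more than the variation from sample to sample, and that variation may be technical.

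Proteins of the Bcl2 family decide whether the outer mitochondrial membrane is breached in intrinsic apoptosis. Bax and Bak1 form the pores, the anti-apoptotic members hold them and the BH3-only proteins in check, and BH3-only proteins are induced or activated by stress and release that block. Mouse haematopoietic stem cells are known to depend on Mcl1, a short-lived protein, and Bbc3, which encodes Puma, is a p53 target known for its part in stem cell death after irradiation.

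The libraries differed in depth and in background. Young WT libraries held 28088637 to 74021822 counts in genes, old WT libraries 3145167 to 5115003, and old KO libraries 11284847 to 17544945. Counts outside annotated genes made up 10.3% ± 3.29 of a young WT library, 83.6% ± 3.62 of an old WT library and 54.5% ± 8.61 of an old KO library (SD, n = 3 each). Olfactory receptor genes, which stem cells are not known to express, gave each library's background as the density of reads on their exons. Per kb of exon this background was 0.0338 ± 0.0157 CPM (a gene's counts scaled by the library's total counts in genes) for young WT, 2.23 ± 0.696 CPM for old WT and 0.486 ± 0.165 CPM for old KO (SD, n = 3 each). Here a gene is above background where it has 20 or more counts and its count is 5 or more times what the background would put on its exons. By that measure 7791 ± 379 protein-coding genes were above background in young WT libraries, 895 ± 245 in old WT and 3316 ± 741 in old KO (SD, n = 3 each). Of 10 stem cell marker genes, 8 or 9 were above background in each young WT and old KO library, and 0 or 2 in each old WT library. Sphk2 itself was above background only in young WT, with 88 to 1684 counts there, 1 to 35 in old WT and 8 to 23 in old KO, so it does not check the genotype labels. In RNA from sorted pools, fewer cells of a type and less RNA per cell cannot be told apart.

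Mcl1 (ENSMUSG00000038612; 3 exon intervals at chr3:95658788-95663176, plus strand, GRCm38) and Bbc3 (ENSMUSG00000002083; 6 exon intervals at chr7:16308393-16318205, plus strand) were the members above background in each library of both young WT and old KO. Their promoters are shown because both transcripts were far above background in each young WT and old KO library and, except for Mcl1 in replicate 1, under 5 times background in old WT. The sequences are the 250 bases before the most upstream start held in the RefSeq promoter table, on GRCm38.p6, at chr3:95658471-95658720 for Mcl1 and chr7:16309333-16309582 for Bbc3. The Bbc3 window lies inside the gene interval given above, whose start is further upstream. Both are read on the plus strand, and capitals mark the GC box letters GGGCGG on either strand.
Mcl1: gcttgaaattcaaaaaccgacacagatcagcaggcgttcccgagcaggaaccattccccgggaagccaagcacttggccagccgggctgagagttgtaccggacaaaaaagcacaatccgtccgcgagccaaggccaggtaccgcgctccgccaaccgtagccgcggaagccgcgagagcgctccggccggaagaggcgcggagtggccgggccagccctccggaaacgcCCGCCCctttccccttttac
Bbc3: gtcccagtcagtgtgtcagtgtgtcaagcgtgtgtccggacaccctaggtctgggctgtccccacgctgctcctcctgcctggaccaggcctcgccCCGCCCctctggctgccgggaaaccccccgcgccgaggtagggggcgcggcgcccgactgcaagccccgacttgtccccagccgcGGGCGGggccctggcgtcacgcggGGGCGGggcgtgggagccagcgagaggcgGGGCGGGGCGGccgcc
The Mcl1 window held 1 GC box and the Bbc3 window 5, of which the last overlap. These letters occurred in 32.7% of the 32851 promoter windows of that length. GC content was 64.4% for Mcl1 and 76.4% for Bbc3, against a median of 52.4% over all windows. The boxes did not set the pair apart from the other members, since the windows of Bcl2 held 7, those of Bcl2l11, Bid and Bad 3 each, that of Bax 2, and those of Bcl2l1 and Bak1 0. Other motifs were searched on both strands and occurred in neither window. They were the CCAAT box (its letters are CCAAT, found in 33.8% of all windows), the TATA box (TATAAA, 12.4%), the cyclic AMP response element (TGACGTCA, 1.55%), the AP-1 site (TGANTCA, 6.75%), the E-box (CACGTG, 6.02%) and the ETS site (CCGGAAGT, 2.88%). The letters TGACG, which TGACGTCA contains, occurred 1 time in the Bbc3 window, 0 times in that of Mcl1 and in 17.8% of all windows. Windows of 9 of the 10 members were used.

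Mcl1 was the most abundant member per length in young WT and old KO libraries. Its counts in young WT replicates 1 to 3 were 106923, 31624 and 57731, or 1444, 1126 and 1860 CPM. In old WT they were 555, 33 and 88, or 108.5, 10.5 and 25.5 CPM. In old KO they were 19998, 15299 and 26123, or 1486, 1356 and 1489 CPM. The old KO values lay inside the young WT range, and every old WT library lay below every library of the other groups. Relative to background, Mcl1 had 8471 to 26065 times the expected count in young WT and 614 to 1378 times in old KO. In old WT it had 16.3, 1.77 and 2.47 times that count, so only old WT replicate 1 held a transcript level above background.

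**Figure D1:**
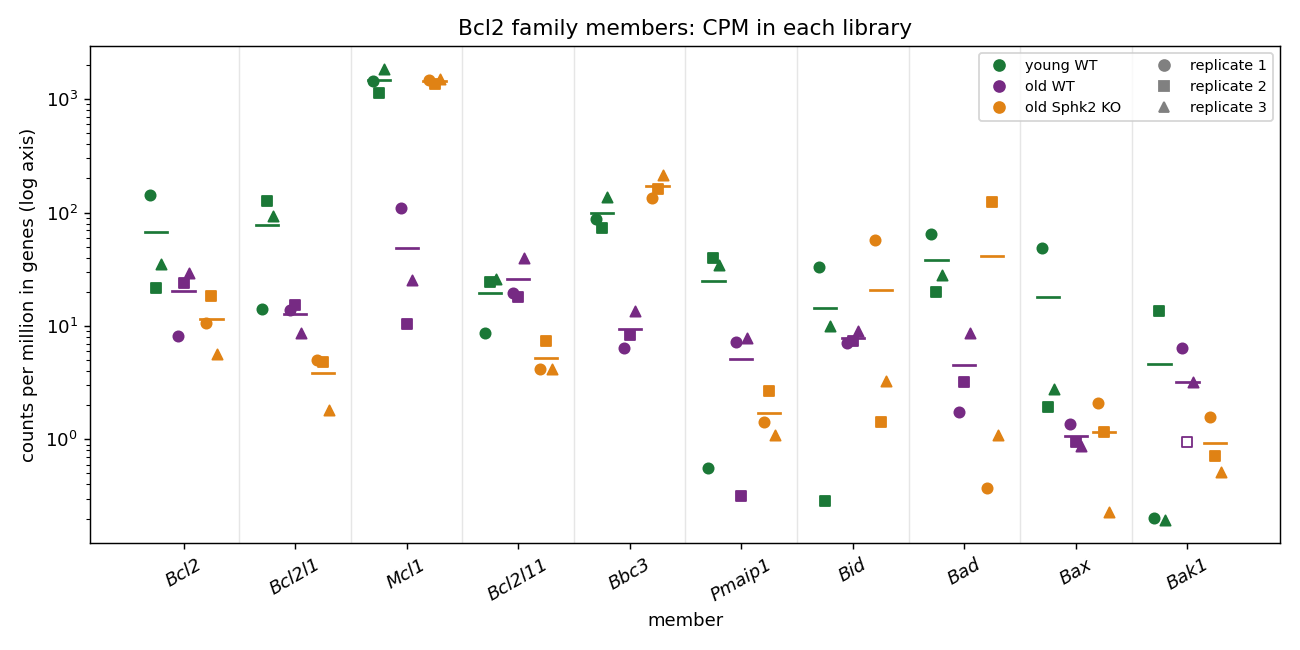
CPM of the 10 members in each of the 9 libraries, on a log axis. Symbols mark the replicate, bars the group mean, and the open symbol marks the Bak1 count of 0 in old WT replicate 2, drawn at the 0.954 CPM that 3 counts give there. Mcl1 lies between 1126 and 1860 CPM in young WT and old KO and between 10.5 and 108.5 CPM in old WT.

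Within each young WT and old KO library, Mcl1 also dominated the family. Per kb of exon it made up 78.7% ± 2.77 of the summed level of the 10 members in young WT and 79.9% ± 4.29 in old KO (SD, n = 3 each). In old WT its share was 33.7% ± 25.9, and 50.2% ± 34.6 net of background (SD, n = 3). Only Mcl1 in replicate 1 was above background there, so the old WT shares rest largely on counts near background. In old WT replicate 2, Mcl1 held 16.0% before subtraction and ranked behind Bbc3 and Bcl2l1. Among the 3 anti-apoptotic members its part of the summed level per kb was 94.4% ± 2.32 for young WT, 60.8% ± 27.5 for old WT and 99.5% ± 0.268 for old KO (SD, n = 3 each). Net of background the old WT value was 76.0% ± 35.4 (SD, n = 3). Ranked by CPM per kb among 21819 protein-coding genes, Mcl1 stood at percentiles 99.26 to 99.47 in young WT, 99.32 to 99.35 in old KO and 76.77 to 97.29 in old WT. Its old KO libraries were also close to each other, the highest CPM being 1.10 times the lowest, against 1.65 times in young WT.

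Bbc3, the BH3-only member with the highest level per length, was likewise lowest in old WT, with its highest mean in old KO. Its counts were 6494, 2072 and 4275 in young WT, or 87.7, 73.8 and 137.8 CPM. Old WT libraries had 33, 26 and 47 counts, or 6.45, 8.27 and 13.6 CPM. Old KO libraries had 1800, 1824 and 3764 counts, or 133.8, 161.6 and 214.5 CPM. The old WT range lay below both others, and the young WT and old KO ranges overlapped. Counts were 893 to 2548 times background in young WT and 118 to 320 times in old KO, but 1.56 to 2.25 times in old WT, where no library met the rule. The percentile per kb was 94.56 to 97.09 in young WT, 72.12 to 87.35 in old WT and 96.81 to 98.04 in old KO.

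**Figure D2:**
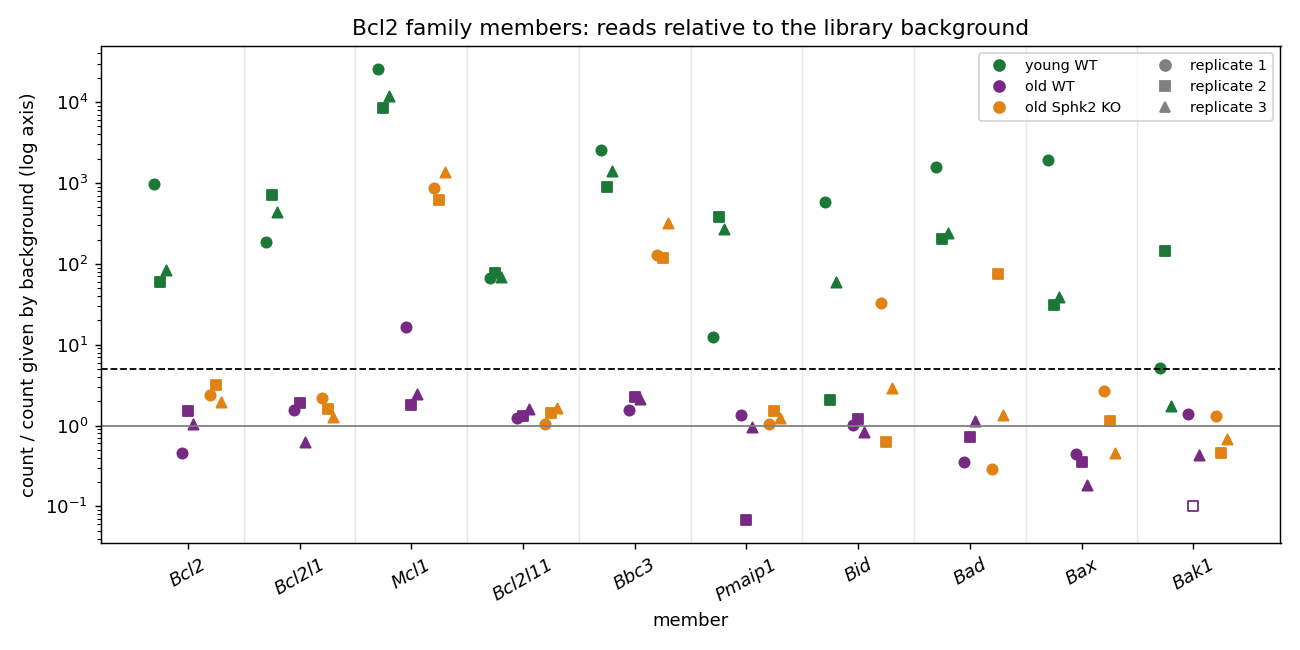
Count of each member divided by the count that the library's background gives over its exons, on a log axis, with a solid line at 1 and a dashed line at 5, the multiple used in the rule. Open symbol: Bak1 with 0 counts, drawn at 0.1. In young WT and old KO, Mcl1 and Bbc3 lie far above the line in each library, while every old WT point except Mcl1 in replicate 1 (16.3) lies under it.

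Bcl2 and Bcl2l1, which encodes Bcl-xL, were above background in every young WT library and in no old library. Bcl2 (chr1:106538178-106714274) had 10664, 601 and 1090 counts in young WT, or 144.1, 21.4 and 35.1 CPM. It had 8.21, 23.8 and 29.3 CPM in old WT and 10.7, 18.5 and 5.64 CPM in old KO. Young WT replicate 1 was far above the rest, and the young WT and old WT ranges overlapped, while all 3 old KO libraries lay below young WT. An antisense gene, D630008O14Rik, shares 558 bases of exon with Bcl2. Since the strand setting of the counting is not given, how reads on these bases were counted is not known. Bcl2l1 (chr2:152780668-152831728) had 1038, 3527 and 2912 counts in young WT, or 14.0, 125.6 and 93.8 CPM. It had 13.9, 15.3 and 8.70 CPM in old WT and 4.98, 4.79 and 1.82 CPM in old KO. Young WT replicate 1, the library with the highest Bcl2 value, held the lowest Bcl2l1 value of its group, inside the old WT range. In old KO, Bcl2l1 counts were 1.26 to 2.19 times background.

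The remaining BH3-only genes were mostly at background in both old groups. Bcl2l11, which encodes Bim, a broad binder of the anti-apoptotic proteins, had 8.71, 24.2 and 25.7 CPM in young WT libraries. Old WT libraries had 19.6, 18.1 and 39.4 CPM, and old KO libraries 4.16, 7.36 and 4.16 CPM. Its old WT values are no sign of expression, since they were 1.25 to 1.62 times background there, against 66.9 to 77.4 times in young WT. Pmaip1, which encodes Noxa, a partner of Mcl1, had 41, 1120 and 1068 counts in young WT and between 1 and 37 in the 6 old libraries. Young WT replicate 1 was the low one for Pmaip1, with 0.554 CPM against 39.9 and 34.4 CPM in replicates 2 and 3.

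In old KO, Bid and Bad each had 1 library far above the other 2. Bid, which links death receptors to mitochondria once cut by caspases, had 2453, 8 and 307 counts in young WT libraries. These were 33.1, 0.285 and 9.89 CPM, with replicate 2 the low one. Old WT libraries had 36, 23 and 31 counts, and old KO libraries 778, 16 and 57, or 57.8, 1.42 and 3.25 CPM. Only young WT replicates 1 and 3 and old KO replicate 1 were above background. Bad, a binder of Bcl2 and Bcl-xL that is held inactive by phosphorylation, had 4828, 561 and 879 counts in young WT libraries. Old WT libraries had 9, 10 and 30 counts, and old KO libraries 5, 1389 and 19. A single old KO library, replicate 2, thus carried the whole signal, at 123.1 CPM against 0.372 and 1.08 CPM. Bid shares 628 exon bases with Bcl2l13 and Bad 524 with Gpr137, both on the other strand.

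The effectors were low in most libraries. Bax had 3625, 54 and 87 counts in young WT, or 49.0, 1.92 and 2.80 CPM, between 3 and 7 counts in old WT and between 4 and 28 in old KO. All young WT libraries were above background and no old library was, yet the young WT mean rested on replicate 1. Bak1 had 15, 377 and 6 counts in young WT libraries, of which only replicate 2 was above background. Old WT libraries had 33, 0 and 11 counts, and old KO libraries 21, 8 and 9, all at background. The count of 0 allows up to 0.954 CPM in old WT replicate 2 (3 counts, counting error only). Bax shares 192 exon bases with Gm45808, and Bak1 shares 177 and 437 with a pair of Ggnbp1 gene models.

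Across the family, each of the 3 young WT libraries had 8 members above background in common, all but Bid and Bak1. Of these 8, 7 reached that level in 0 old WT libraries and none in all 3. The whole table held 5863 genes that passed in each young WT library, of which 72.9% passed in 0 old WT libraries and 4.93% in all 3. In old KO, Mcl1 and Bbc3 passed in all 3 libraries and 5 of the 8 in 0, where the shares over the 5863 genes were 24.8% and 27.2%. The 8 members other than Mcl1 and Bbc3 gave 24 pairs of member and old KO library, of which 2 were above background. A set of 1452 genes passed in every library of both young WT and old KO, and 43.2% of them passed in 0 old WT libraries, which was the case for Bbc3 and not for Mcl1.

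How far a lower level could be seen depended on the background. To count as above it in every old WT library, Mcl1 would have needed 51.7 CPM and Bbc3 32.2 CPM, which every young WT library exceeded. For Bcl2l1 the level needed was 69.4 CPM, below the young WT median of 93.8 CPM but above replicate 1. For the other 7 members the young WT median lay below the level needed in old WT. Bcl2, for example, would have needed 138.6 CPM and had a young WT median of 35.1 CPM. A young-like level of these 7 was therefore not detectable in every old WT library. In old KO the limits were lower, and the young WT median exceeded them for Bcl2 (29.6 CPM needed), Bcl2l1 (14.8), Mcl1 (11.03), Bbc3 (6.85), Pmaip1 (8.82) and Bad (8.26).

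**Figure D3:**
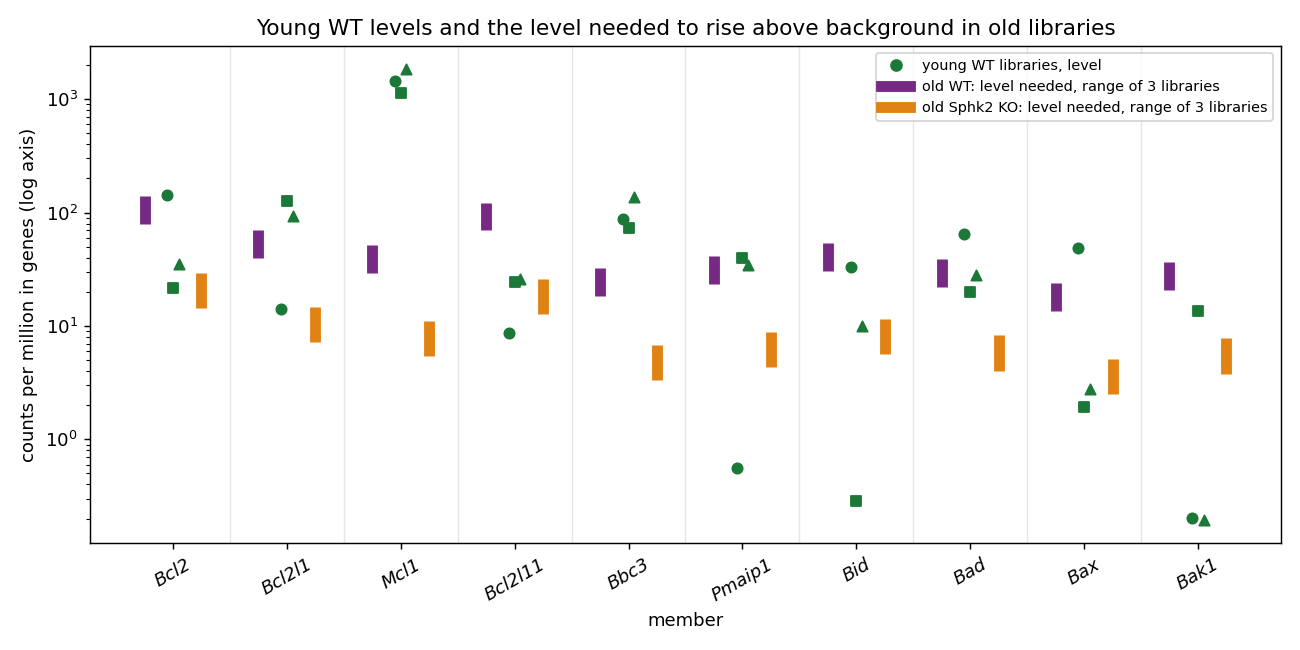
CPM of each member in the 3 young WT libraries (points) beside the CPM it would need to count as above background in old WT and old KO libraries (bars, lowest to highest of 3 libraries), on a log axis. Mcl1 and Bbc3 are the members whose young WT values all clear the old WT bar. The old KO bars are lower throughout.

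Comparison of old WT with young WT, groups that differ in age and also in depth and background, gave 3 of 10 members called lower and 0 called higher by edgeR's quasi-likelihood test with Benjamini-Hochberg adjustment over 32582 genes. Of all genes tested, 3.48% were called lower and 68.4% higher. Only 8596 of the 32582 tested genes were above background in at least 2 libraries of a group, against 9 of the 10 members. Shares of all tested genes called lower, here and below, are therefore low yardsticks. Fold changes are given on the log2 scale ± their standard error (SE), with libraries scaled to total counts in genes. Mcl1 fell by 4.94 ± 0.99 (adjusted p = 7.9e-04, edgeR) and Bbc3 by 3.40 ± 1.06 (adjusted p = 0.00901, edgeR). Both were lower in all 3 old WT libraries than in any young WT library, and both kept the call when any 1 library was left out. Bbc3 counts in old WT were 1.56 to 2.25 times background. With background subtracted and TMM on the genes above background, its fold change was -3.86 ± 1.56 (adjusted p = 0.185, edgeR). The third call, Bax, fell by 4.05 ± 1.42 (adjusted p = 0.0168, edgeR), but without young WT replicate 1 its fold change was -1.13 and the call was lost. It was also lost without old WT replicate 2 (adjusted p = 0.0583, edgeR) or replicate 3 (adjusted p = 0.0695, edgeR).

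The other 7 members had fold changes from -3.06 (Bad) to 0.40 (Bcl2l11) and did not pass the test, with Bcl2l1 at -2.62 ± 1.18 (adjusted p = 0.0568, edgeR). The median over the 10 members was -2.45, and that over all tested genes was 5.30. With TMM on the genes above background alone, the median was -2.81 over the 9 members tested and -1.19 over all 8620 genes. A gene entered this set by being above background in at least 2 libraries of any 1 group. None of the members did so in old WT, so they entered through groups where they were high. Medians, shares and calls on this set, here and below, are therefore no independent check. The ranges of 4 members lay wholly below young WT, namely Mcl1, Bbc3, Bad and Bax, as did those of 5.87% of all tested genes and 22.3% of genes above background in at least 2 libraries of a group. Scaling mattered for this comparison. TMM factors over all genes moved the median gene by -3.90 log2 and called 9 members lower, all but Bak1, along with 18.4% of tested genes. With TMM on the genes above background alone, only Mcl1 was called (-5.24), where 2.26% of the genes were called lower, while Bbc3 was at -3.82 (adjusted p = 0.0600, edgeR) and Bax at -4.62 (adjusted p = 0.0955, edgeR). With background subtracted from these same genes, also with TMM, no member was called, and 5 of 8620 genes were called lower. Mcl1 was then at -4.72 ± 1.08 (adjusted p = 0.124, edgeR), against -5.24 without subtraction.

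In old KO against old WT, groups of like age that differ in the labelled genotype and also in depth and background, none of the 10 members passed the adjusted threshold. Only 2 of 32582 genes did, or 0.00614%, although 9528 genes and 2 members, Mcl1 and Bbc3, had an unadjusted p under 0.05. The fold change was 4.90 ± 0.99 for Mcl1 (adjusted p = 0.146, edgeR) and 4.17 ± 1.10 for Bbc3 (adjusted p = 0.148, edgeR). Each was higher in all 3 old KO libraries than in any old WT library. Without old WT replicate 1, Mcl1 was called (6.32, adjusted p = 0.0437, edgeR). Such separation upwards occurred in 1.91% of tested genes and in 7.15% of genes above background, and Mcl1 and Bbc3 were the only members with it. DESeq2 called Mcl1, Bbc3 and Bad higher, with 6.23% of tested genes. edgeR called Mcl1 and Bbc3 higher with TMM factors (6.79 and 6.24, 0.457% of genes), with TMM on the genes above background (5.43 and 4.84, 1.54% of genes) and in a fit of only the 6 libraries compared (1.28% of genes). The call therefore depended on the scaling and on which libraries entered the fit. Mcl1 and Bbc3 were among the genes above background through young WT and old KO, not old WT, so the fit on those genes is no independent check.

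Bcl2l1 and Bcl2l11 had old KO values wholly below old WT, as did 48.8% of all tested genes, with fold changes of -1.71 ± 1.15 and -2.30 ± 1.09 that did not pass the test. Both were at background in both groups, and the background itself was lower in old KO. The fold change of Bad, 3.19 ± 1.69 (adjusted p = 0.191, edgeR), rested on old KO replicate 2 and was -2.62 without it. The median over the members was -0.36 and that over all tested genes -1.91. With TMM on the genes above background alone, these medians were 0.630 and 0.155.

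**Figure D4:**
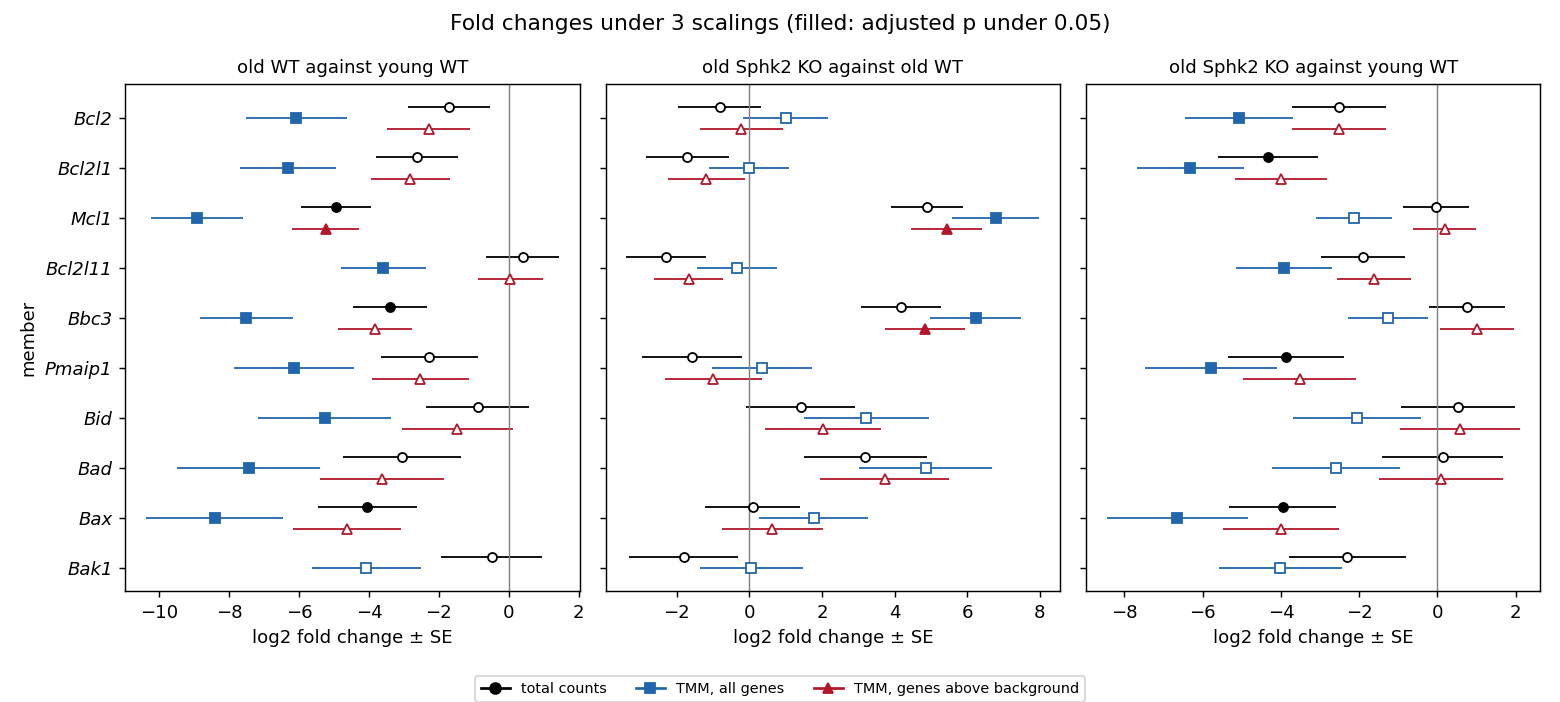
Log2 fold change ± SE of each member in the 3 comparisons, with total counts, TMM over all genes and TMM over genes above background; filled symbols passed an adjusted p of 0.05 in edgeR. Bak1 was not among the genes above background. Mcl1 and Bbc3 lie to the right in old KO against old WT under all 3 scalings, from 4.17 to 6.79.

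Old KO against young WT compares groups that differ in age, labelled genotype, depth and background, which cannot be told apart here. It called Bcl2l1, Pmaip1 and Bax lower and no member higher, 3 of 10, where 3.93% of all tested genes were called lower and 52.7% higher. Bcl2l1 fell by 4.33 ± 1.28 (adjusted p = 0.0139, edgeR) and kept its call when any 1 library was left out. Pmaip1 fell by 3.86 ± 1.48 (adjusted p = 0.0371, edgeR) and Bax by 3.96 ± 1.38 (adjusted p = 0.0253, edgeR), but the old KO ranges of both overlapped those of young WT, and they kept the call in 3 and 6 of 9 fits with 1 library left out. Pmaip1 lost it without young WT replicate 2, old WT replicate 1 or 3, or any old KO library, with adjusted p up to 0.0940 in edgeR. Bax lost it without old KO replicate 2 or 3, and without young WT replicate 1, where its fold change was -1.04 (adjusted p = 0.434, edgeR). No member was called with TMM on the genes above background alone or with background subtracted. Each of these fits called 4 of 8620 genes higher and 0 lower, so no gene kept a lower call there. The fold changes of the 3 members stayed negative. That of Bcl2l1 was -4.00 (adjusted p = 0.0954, edgeR) and -4.75 (adjusted p = 0.437, edgeR) in these fits, that of Pmaip1 -3.52 and -5.17, and that of Bax -3.99 and -4.81.

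Mcl1 and Bbc3 did not pass in this comparison. Their fold changes were -0.03 ± 0.84 (adjusted p = 0.977, edgeR) and 0.77 ± 0.97 (adjusted p = 0.509, edgeR), which does not show that the levels were equal. With TMM over all genes, which moved the median gene by -2.01 log2, Bbc3 turned to -1.26 and Mcl1 was at -2.14 (adjusted p = 0.114, edgeR). DESeq2 called Mcl1 lower (-2.42, adjusted p = 0.0390), with 13.7% of tested genes. The median over the members was -2.10, against 3.244 over all tested genes. With TMM on the genes above background alone, these medians were -1.62 and -0.375. Ranges lay wholly below young WT for 3 members, Bcl2, Bcl2l1 and Bcl2l11, as for 4.06% of tested genes and 15.4% of genes above background. The comparisons share libraries, old WT being part of the first and the second and young WT of the first and the third, so their fold changes are not independent.

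The spread between young WT libraries differed widely among members. The highest CPM was 1.65 times the lowest for Mcl1, 1.87 for Bbc3, 2.95 for Bcl2l11 and 3.27 for Bad, but 25.5 for Bax, 69.4 for Bak1, 72.0 for Pmaip1 and 116 for Bid. Over all genes this ratio had a median of 2.16 for the 1411 genes with a mean of at least 100 CPM and 19.96 for the 5856 genes between 10 and 100 CPM. Bbc3, with a young WT mean of 99.8 CPM, lay at the upper edge of the second range. Its ratio of 1.87 was near the median of 2.16 of the genes of at least 100 CPM. Bid, Pmaip1 and Bax, with means between 10 and 100 CPM, lay above the median ratio of that range. Bcl2 (6.73), Bcl2l1 (8.95), Bcl2l11, Bad and Bbc3, with means in the same range, lay below it.

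The genes whose levels over the 9 libraries were most like those of Mcl1, among 8938 with a mean of at least 10 CPM, were Ubxn1 (Pearson r = 0.984 of log2(CPM + 1), Spearman rho = 0.80), Hnrnpc (0.982 and 0.867) and Tomm7 (0.980 and 0.533). For Bbc3 they included Itga6 (0.986 and 0.917) and Actr2 (0.986 and 0.867). The points share the group differences in depth and background, so these values are descriptions. Itga6 encodes an integrin chain.

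Genes that act beside the 10 members were read in 5 lists. Among 15 further Bcl2 family genes, 13 were tested, and 7 were called higher and 1 lower in old WT against young WT, where 68.4% of all tested genes were called higher and 3.48% lower. None of the 7, which include Bcl2l14, Bcl2l15 and Bmf, was above background in any old WT library: Bmf, a BH3-only gene, had 0.497 to 1.60 times the background count there. The 1 lower gene, Bnip3l, a mitophagy receptor, had 117.9, 142.4 and 101.0 CPM in young WT libraries, against 4.13 to 18.9 CPM in those of old WT (-3.58 ± 1.32, adjusted p = 0.0225, edgeR). It lost the call without old WT replicate 1 or 2 (adjusted p up to 0.0755, edgeR). Bcl2l13 had values from 1.04 to 117.0 CPM in young WT and was not called. Bcl2a1a, Bcl2a1b and Bcl2a1d are near-identical copies, and how reads fitting several of them were counted is not given.

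Of 14 apoptosome and caspase genes, 1 was called higher and 1 lower in old WT against young WT, and 5 lower in old KO against young WT. Over all tested genes 68.4% were called higher and 3.48% lower in the first of these comparisons, and 3.93% lower in the other. Htra2, a mitochondrial protease that antagonises caspase inhibitors, had 31.4, 42.7 and 3.54 CPM in young WT, 0.580 to 3.82 CPM in old WT and 0.669 to 1.15 CPM in old KO. It fell by 3.61 ± 1.25 in old WT (adjusted p = 0.0159, edgeR) and by 4.76 ± 1.31 in old KO (adjusted p = 0.0115, edgeR), and the first call was lost without old WT replicate 1 or 3. Casp8, the initiator caspase of death receptors, fell by 4.28 ± 1.40 in old KO against young WT (adjusted p = 0.0201, edgeR), a call lost without young WT replicate 2 or old KO replicate 1 or 3. Casp6, an executioner caspase, was the gene called higher, and its 1117 CPM in old WT replicate 2 stood beside 17.2 and 22.3 CPM in the other old WT libraries; without that library it was not called (2.32, adjusted p = 0.277, edgeR).

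Of 6 caspase inhibitors, Birc3 was called higher and Birc2 lower in old KO against young WT, and none was called in old WT against young WT. Over all tested genes, 52.7% were called higher and 3.93% lower in old KO, and 68.4% higher and 3.48% lower in old WT. Birc3, which encodes the ubiquitin ligase cIAP2, had 2.54, 35.0 and 0.806 CPM in young WT, 8.27 to 13.3 CPM in old WT, at background, and 397, 30.3 and 204 CPM in old KO. It rose by 4.04 ± 1.48 over young WT (adjusted p = 0.0306, edgeR), with overlapping ranges, and lost the call without young WT replicate 1 or 3 or old KO replicate 1. Birc2, its paralogue, fell by 2.95 ± 1.22 (adjusted p = 0.0486, edgeR) and kept the call only without young WT replicate 3 or old KO replicate 1. Xiap had 115.7 CPM in young WT replicate 2 and under 1 CPM in replicates 1 and 3. Of 8 death receptor genes, only Fadd, the adaptor that recruits Casp8, was called, while Tnfrsf1a was not. Fadd was lower than in young WT both in old WT (-4.06 ± 1.35, adjusted p = 0.0128, edgeR) and in old KO (-3.18 ± 1.28, adjusted p = 0.0445, edgeR). The shares of all tested genes called lower in these comparisons were 3.48% and 3.93%. The Fadd calls were lost without old WT replicate 1 in the first case, and in 6 of 9 fits with 1 library left out in the second, those without young WT replicate 1, any old WT library or old KO replicate 1 or 2.

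Of 5 genes for Mcl1 protein turnover, 3 were called higher and 1 lower in old WT against young WT, and 1 higher in old KO against young WT. The shares of all tested genes called higher were 68.4% and 52.7% in these comparisons, and 3.48% were called lower in old WT. March5, a mitochondrial ubiquitin ligase, followed the order of Mcl1 in part. Young WT libraries had 81.7, 132.4 and 121.9 CPM, old WT libraries 11.5, 5.41 and 11.9 CPM, and old KO libraries 7.21, 163.1 and 83.7 CPM. It fell by 3.54 ± 1.25 in old WT (adjusted p = 0.0179, edgeR; 0.0585 without old WT replicate 2), and its old KO replicate 1 lay within the old WT range. Usp9x, a deubiquitinase of Mcl1, was the gene called higher in both old groups, but was above background only in old WT replicate 2 and old KO replicate 3. Btrc was called higher in old WT without being above background in any library there, lost the call without young WT replicate 1 or old WT replicate 1 or 3, and was -0.72 with TMM. Huwe1, another ligase of Mcl1, was not called. For old KO against old WT, edgeR with total counts called 0 of the 46 genes tested from these 5 lists, and 7 had an unadjusted p under 0.05. DESeq2 called 3, all higher, namely Birc3, March5 and Cycs, which encodes cytochrome c, where it called 6.23% of all tested genes higher.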

How the data were processed

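The authors deposited raw read counts per gene for 9 libraries. Per the submitters' processing notes, mm10 was the genome, and edgeR 3.24.3, HTSeq 0.10.0, STAR 2.6.1d and Trim Galore 0.6.2 were used. Annotation and strand setting: not given in the sources used here. The 5 lines that name no gene stayed out of library sizes and tests. Of their shares, only that of counts outside annotated genes is given above. Symbols (52403 identifiers matched), coordinates and exon lengths came from GENCODE M21, and promoters from RefSeq.

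Counts were tested with edgeR 4.0.16 in R 4.3.3 (quasi-likelihood F test, total counts in genes as library size, filterByExpr, all 9 libraries in 1 fit, Benjamini-Hochberg at 0.05, 32582 genes). Total counts were taken in place of TMM so that fold changes are on the scale of the printed CPM. Background came from 1081 of 1092 olfactory receptors, the densest 1% being left out. Alternatives were TMM, DESeq2 1.42.0, upper-quartile factors, other filters, the 6 libraries compared, a replicate block, background subtraction, genes above background alone, other background multiples and leaving out each library. The fit with background subtracted used TMM on the genes above background alone. Scripts were tested on simulated counts. Deviations from the group means had correlations of -0.03 to 0.02 between same-numbered libraries and -0.02 to 0.04 between the others. This shows no pairing by number, but cannot exclude it, since many of the genes were at background in old libraries.

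The members, the lists and the design were chosen with earlier results of these data known. Other genes named are, per list, up to 3 called genes with the smallest adjusted p and the 2 highest in young WT, plus the 3 most like Mcl1 and Bbc3, and Sphk2. Some genes that this rule gave are not reported here. Marker lists of granulocytes and monocytes, erythroid cells, megakaryocytes, B, T and NK, and stromal cells were read as summed CPM.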

Additional observations from a re-analysis of the deposited data

Results flagged for a closer look

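Counts outside annotated genes, which no comparison of the members used, averaged 83.6% of all counts for old WT and 54.5% for old KO, above the 10.3% of young WT. The fit with background subtracted also used TMM and only the genes above background. In old WT against young WT it gave -4.72 for Mcl1 and -3.86 for Bbc3, and no member was called in edgeR. The same genes with TMM and no subtraction gave -5.24 and -3.82. Total counts over all tested genes gave -4.94 and -3.40. The members' values relative to background are given with each result.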

How the results depend on the processing

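The number of genes called depended on the setting. In old WT against young WT it was 23414 with total counts (95.2% higher), 12058 with TMM (50.3% higher), 16827 with DESeq2 (61.7% higher), 15046 with upper-quartile factors, 13427 with at least 10 counts in every library of a group, 12 with background removed and 347 with TMM on genes above background. In old KO against old WT it was 2, and 149 with TMM, 2181 with DESeq2, 116 with no filter, 5 with at least 10 counts, 8046 in the 6 libraries, 14 with background removed and 134 on genes above background. In old KO against young WT it was 18438 (93.1% higher), and 4158 with TMM (54.3% higher), 9154 with DESeq2, 6110 with upper-quartile factors, 12014 with at least 10 counts, 11182 in the 6 libraries, 4 with background removed and 4 on genes above background. Leaving out 1 library gave 23393 to 27869, 0 to 5 and 12329 to 18999 calls. The cause was not tested. The number of members above background per library, on average 9, 0.333 and 2.67, became 9, 0.333 and 3.00 at 3 times background and kept its values at 10 times.

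Log2 fold changes of members turned sign as follows. In old WT against young WT, Bcl2l11 was -3.59 with TMM, -3.40 with DESeq2, -3.17 with upper-quartile factors and -0.66 with background removed, and Btrc, of the genes outside the family, was -0.72, -0.46 and -0.15 under the first 3 of these. In old KO against old WT, Bcl2 was 1.00 with TMM, 0.64 with DESeq2, 0.88 with upper-quartile factors and 1.27 with background removed; Pmaip1 was 0.35 with TMM and 0.21 with upper-quartile factors, and Bak1 0.055 with TMM. In old KO against young WT, Bbc3 was -1.26, -1.55 and -1.15, Bid -2.05, -2.40 and -2.14 and Bad -2.58, -2.90 and -2.59 with TMM, DESeq2 and upper-quartile factors, and Mcl1 was 0.58 with background removed and 0.19 on genes above background.

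With 1 library left out, ranges that crossed 0 in old WT against young WT were -1.47 to 0.61 for Bid, -1.51 to 3.997 for Bak1 and -0.053 to 0.64 for Bcl2l11. In old KO against old WT they were -0.65 to 0.59 for Bax, -1.73 to 1.97 for Bid and -2.62 to 4.08 for Bad, and in old KO against young WT -2.62 to 2.03 for Bid, -5.68 to 0.78 for Bad, -2.91 to 2.19 for Bak1 and -0.19 to 0.17 for Mcl1. Without young WT replicate 2, Bak1 was called higher in old WT (adjusted p = 0.0291, edgeR), and without old KO replicate 2, Bad was called lower in old KO than in young WT (adjusted p = 0.0289, edgeR).

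A replicate block, although no pairing by number was shown, gave 23142, 2 and 15641 calls and 2, 0 and 1 called members. Bax was lost in old WT against young WT, and Pmaip1 and Bax in old KO against young WT. Under the block Bid (0.95) and Bak1 (1.10) turned in the first comparison, Bid (-0.79) and Bax (-0.32) in the second and Bad (-2.46) in the third. Depth and background limit old WT most.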

Other observations

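Markers of other marrow cells were read beside the members. The values below are ranges over the 3 libraries of young WT, old WT and old KO, in that order. The 10 granulocyte and monocyte genes summed to 719 to 1080, 699 to 1183 and 1138 to 2156 CPM, with 6 or 7, 3 or 4 and 3 to 7 of them above background. The 9 erythroid genes summed to 116 to 448, 20.03 to 30.7 and 6.32 to 61.9 CPM, with 4 to 7, 0, and 0 or 1 above background. The 6 megakaryocyte genes summed to 383 to 880, 131 to 435 and 275 to 609 CPM. The 6 B cell genes summed to 10.3 to 89.0, 52.8 to 111.6 and 11.7 to 165.9 CPM, with 1 to 3, 0 or 1, and 0 or 1 above background. The 6 T and NK cell genes summed to 76.5 to 162.7, 29.6 to 71.6 and 12.8 to 176.7 CPM. The 6 stromal and endothelial genes summed to 1.11 to 156.3, 106.2 to 137.5 and 34.8 to 56.9 CPM, with at most 1 above background in any library. The 10 stem cell markers summed to 1355 to 1527, 151 to 1914 and 1086 to 2928 CPM. Their part in the members' values was not tested.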
